A study of Mus musculus with 29 samples.

Results

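Cathepsins are proteases of the lysosome, and 10 cathepsin genes (Ctsa, Ctsb, Ctsc, Ctsd, Ctse, Ctsh, Ctsk, Ctsl, Ctss and Ctsz) were described across macrophages sorted from the spleen and liver. The genes were found by symbol among the 23930 genes of an RNA-seq table, and all 10 symbols were present. The study asked how macrophages change when RNase T2, a ribonuclease of endosomes and lysosomes, is missing. RNA was sequenced from 29 libraries in 9 groups of organ, subset and genotype, without any treatment of the mice. Splenic Ly6Chi macrophages gave 3 wild-type and 3 Rnaset2-/- libraries, and splenic Ly6Clow macrophages gave 3 wild-type and 4 Rnaset2-/- libraries. Hepatic Ly6Chi and Ly6Clow macrophages gave 3 libraries of each genotype, and wild-type Kupffer cells (KCs), the resident macrophages of the liver, gave 4. Rnaset2-/- mice lack both Rnaset2a and Rnaset2b, the wild-type mice were C57BL/6 of both sexes, and no ages are given in the sources used here. The Ly6Chi and Ly6Clow cells were gated as CD11b+ and negative for Ly6G, SiglecF and NK1.1, with Fcgr4 as a further positive marker of the Ly6Clow gate. The KCs were gated on F4/80, Tim4, intermediate CD11b and low PDCA-1.

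Cathepsins are made as inactive proenzymes, tagged with mannose 6-phosphate in the Golgi, carried to the lysosome by mannose 6-phosphate receptors and matured in acid. By catalytic type, Ctsd and Ctse are aspartic proteases, Ctsa is a serine carboxypeptidase, and the others are cysteine proteases held in check by cystatins. In macrophages they degrade engulfed proteins, cut the invariant chain that occupies MHC class II molecules, and activate other enzymes.

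Levels are given in RPM, the deposited unit, in which each library's reads are scaled to the same total, and the libraries held 11175843 to 21167602 reads (median 13027220). Each gene was read through its own amplicons, so a gene's level is compared between libraries and not with the level of another gene. Differences are on the scale of log2(RPM divided by a scaling factor, plus 1), ± their SE. Overlap between libraries was judged in RPM as deposited, without this scaling. A gene was called when limma's adjusted p was below 0.05 over all tested genes and the change was more than 1.5-fold. Shares of all tested genes are those of the fit with all libraries of a comparison, scaled and without a block. Counts under other fits, or without a library, have no such share beside them. Macrophage and monocyte markers summed to 1384 RPM or more in every library. In bulk samples, fewer cells of a type and less RNA per cell cannot be told apart. The labels do not say whether replicates came from separate mice, so the p-values measure the spread between these libraries, which may be technical. The Rnaset2-/- splenic Ly6Clow libraries were not all from 1 mouse, with Xist at 0.781 RPM in replicate 2 and 611 to 744 RPM in replicates 1, 3 and 4.

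Some libraries stood apart, and calls that changed without them are given beside the results. The 10 genes together made up 17540 RPM in replicate 1 of Rnaset2-/- hepatic Ly6Chi macrophages, against 8141 and 8421 in the other 2. Less far apart, they made up 20455 RPM in replicate 1 of Rnaset2-/- hepatic Ly6Clow macrophages, against 15401 and 15871 in the other 2. They made up 7918 RPM in replicate 3 of the KCs, against 16185 to 17893, and this library also had the highest hepatocyte marker sum (3545 RPM against 1030 to 1158). In the liver, all 6 Rnaset2-/- libraries had Y-linked transcripts at 150 to 291 RPM and Xist at 0.154 RPM or less, whereas the 6 wild-type libraries of the same subsets had Xist at 321 to 539 RPM and Y-linked transcripts at 0 to 52.0 RPM. In these libraries genotype and sex cannot be told apart.

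**Figure D1:**
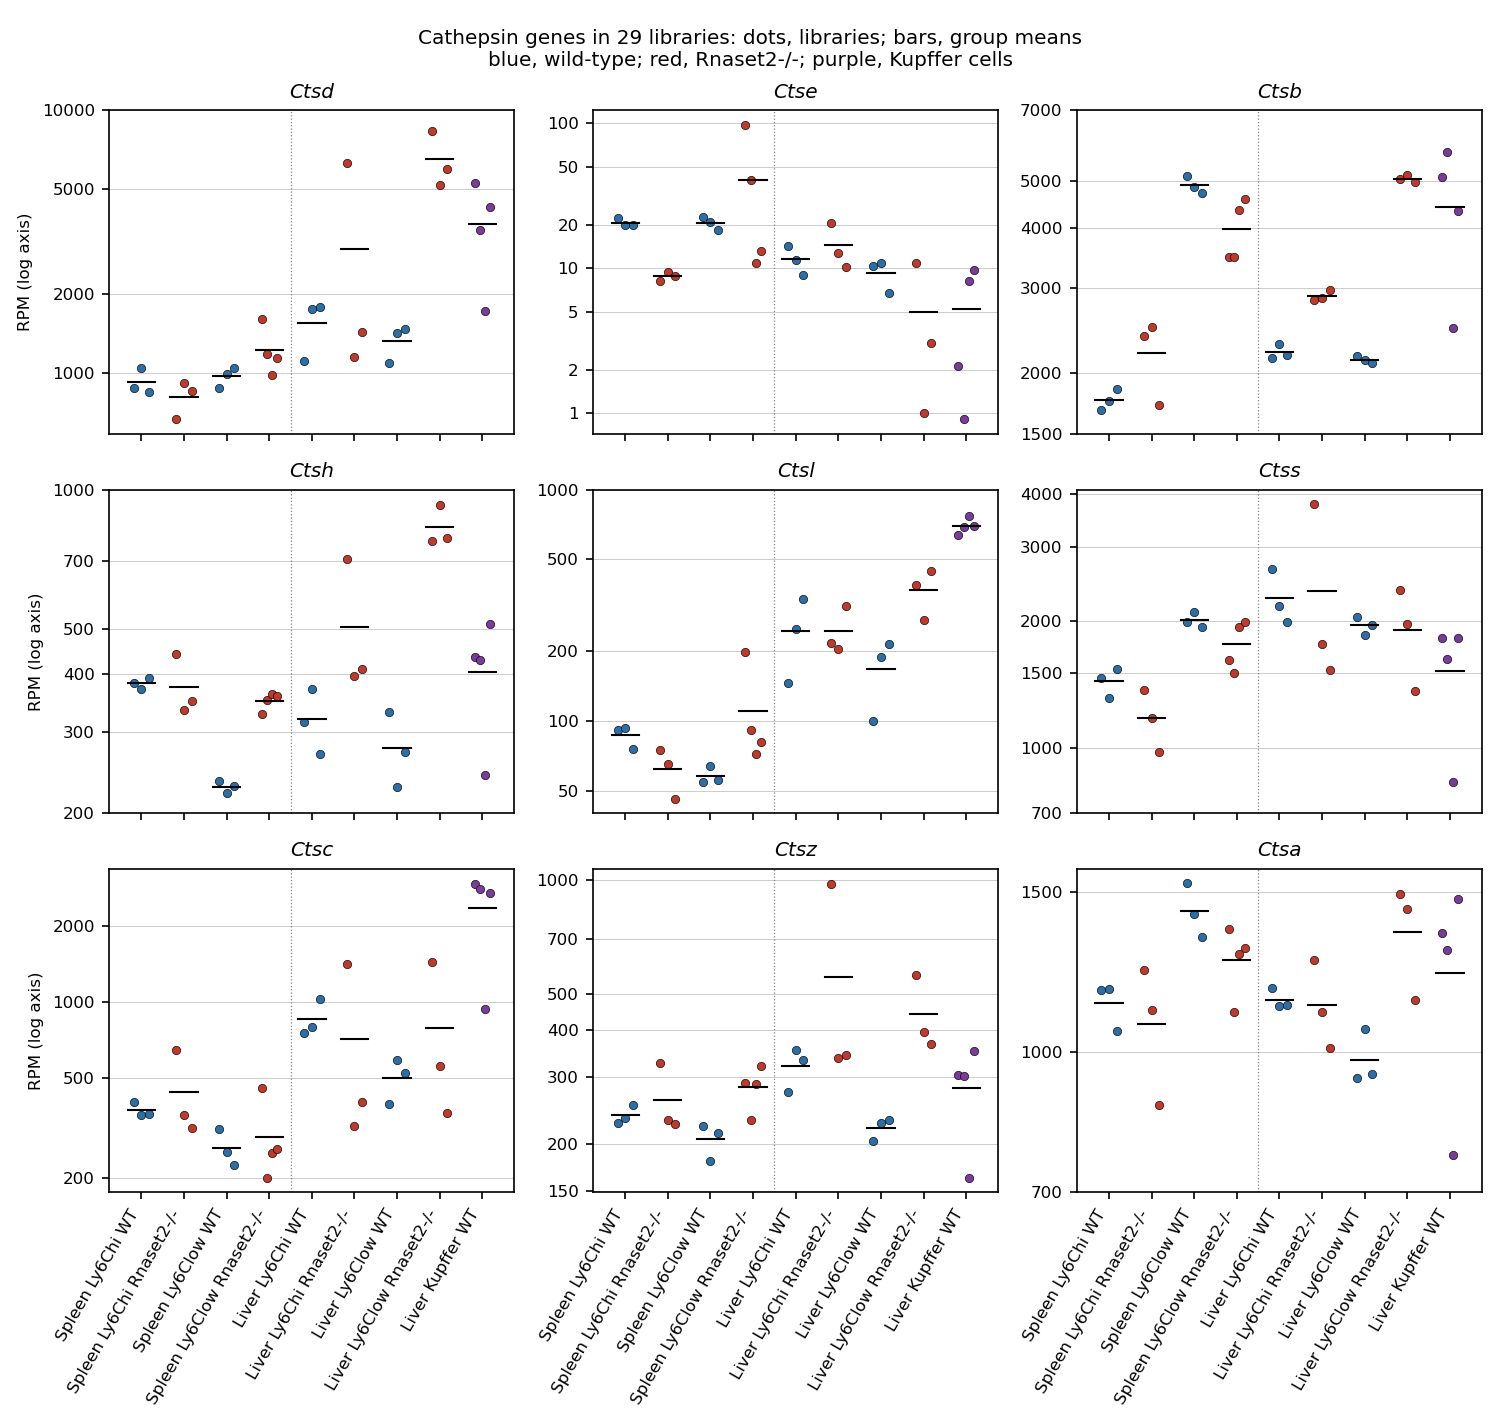
RPM of 9 cathepsin genes (log axes) in each library of the 9 groups. Dots are libraries, bars are group means, blue is wild-type, red is Rnaset2-/- and purple is KCs. Ctsd was highest in Rnaset2-/- hepatic Ly6Clow macrophages by group mean (5185 to 8372 RPM, with 1 Rnaset2-/- hepatic Ly6Chi library at 6314 RPM and 1 KC library at 5303 RPM in the same range), and Ctsl in the 4 KC libraries (638 to 771 RPM).

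Over the 9 groups the span of the group means differed widely between genes. Ctsl, a broad endopeptidase, ran from 57.9 RPM ± 5.30 (SD, n = 3) in wild-type splenic Ly6Clow macrophages to 699 RPM ± 54.8 (n = 4) in KCs, a ratio of 12.1. Ctsc, which removes dipeptides and activates granule serine proteases, ran from 265 RPM ± 44.6 (n = 3) in wild-type splenic Ly6Clow macrophages to 2339 RPM ± 938 (n = 4) in KCs, a ratio of 8.84. Ctsd, the main aspartic protease of the lysosome, ran from 813 RPM ± 129 in Rnaset2-/- splenic Ly6Chi macrophages to 6511 RPM ± 1660 in Rnaset2-/- hepatic Ly6Clow macrophages (n = 3 each), a ratio of 8.01. Each of these genes was thus higher in a liver group than in any spleen group. Ctsa and Ctss varied least, with ratios of 1.46 and 2.01 between their highest and lowest groups.

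The order of the groups was mostly continuous. For the 9 genes other than Ctsk, 65 of 72 pairs of neighbouring groups had overlapping libraries.

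Among the 7 pairs without overlap, 3 were of Ctsb. Its Rnaset2-/- hepatic Ly6Clow macrophages (5048 RPM ± 85.5), wild-type splenic Ly6Clow macrophages (4900 RPM ± 202), KCs (4413 RPM ± 1415) and Rnaset2-/- splenic Ly6Clow macrophages (3971 RPM ± 574) overlapped from one to the next. They stood apart from the Rnaset2-/- hepatic Ly6Chi macrophages (2889 RPM ± 70.1), although 1 KC library, replicate 3, was at 2476 RPM. The lowest group for Ctsb was wild-type splenic Ly6Chi macrophages, at 1761 RPM ± 85.8.

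Ctsk, the collagen-degrading cathepsin of osteoclasts, was practically not read. It had 4 reads in the KC library where it was highest (0.328 RPM), 3 and 2 reads in 2 other KC libraries, and 1 or 0 reads in each of the other libraries. The floor of 3 reads stood at 0.142 to 0.268 RPM, so that a level below this would not have been detectable. Ctsk therefore did not pass the filter of at least 1 RPM in at least 3 compared libraries, and 9 of the 10 genes were tested in every comparison. This floor covers counting error only.

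The largest genotype differences were found in hepatic Ly6Clow macrophages, where 5 of the 9 tested cathepsins were called higher in Rnaset2-/- mice and none lower. Of all 10808 genes tested by limma, 20.2% were called higher and 22.5% lower. The 5 genes were Ctsd, Ctsh, Ctsb, Ctsl and Ctsz. The median difference over the 9 cathepsins was 0.94, beside 0.01 over all tested genes.

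Ctsd had 1096, 1417 and 1468 RPM in the 3 wild-type libraries and 8372, 5185 and 5974 RPM in the 3 Rnaset2-/- libraries. Every Rnaset2-/- library was thus above every wild-type library, and the difference was 2.24 ± 0.27, or 4.71-fold, with an adjusted p of 0.00039 by limma. Ctsd lies on the minus strand of chromosome 7, from 142375911 to 142388038 in GRCm38. Without replicate 1, the library with the highest value, the gene was still called.

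Ctsh, an aminopeptidase, rose from 330, 227 and 271 RPM in wild-type to 773, 928 and 786 RPM in Rnaset2-/- libraries, again without overlap. The difference was 1.55 ± 0.18 (adjusted p = 0.00032). Ctsb, an endopeptidase (chromosome 14, 63122462 to 63145923), was the most even of the group. Its wild-type libraries had 2175, 2130 and 2097 RPM and its Rnaset2-/- libraries 5044, 5135 and 4964 RPM. The SD was 1.84% of the mean in wild-type and 1.69% in Rnaset2-/- libraries, and the difference was 1.20 ± 0.19 (adjusted p = 0.0017).

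Ctsl and Ctsz were called at smaller margins. Ctsl had 99.6, 190 and 216 RPM in wild-type and 387, 272 and 443 RPM in Rnaset2-/- libraries, a difference of 1.13 ± 0.34 (adjusted p = 0.026). Its call rested on single libraries, with adjusted p = 0.068 without wild-type replicate 1 and 0.069 without Rnaset2-/- replicate 3. Ctsz, a carboxypeptidase, had 203, 227 and 231 RPM in wild-type and 562, 396 and 368 RPM in Rnaset2-/- libraries, a difference of 0.94 ± 0.20 (adjusted p = 0.0063). The genotypes did not overlap for either gene.

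The other 4 cathepsins were not called in this comparison. Ctsa, which also protects β-galactosidase and neuraminidase, had 936 to 1061 RPM in wild-type and 1141 to 1494 RPM in Rnaset2-/- libraries without overlap, with a difference of 0.42 ± 0.18 (adjusted p = 0.097). Counting Ctsa, libraries of 6 of the 9 genes did not overlap and were higher in Rnaset2-/- mice, beside 29% of all tested genes, and none did so in the lower direction, beside 27.1%. Ctss, the invariant chain protease, gave a difference of -0.11 ± 0.23 with a 95% interval from -0.65 to 0.42, and its genotypes overlapped. Ctsc was spread from 361 to 1440 RPM among the Rnaset2-/- libraries, so that its interval ran from -0.66 to 1.42. Ctse had 10.4, 10.8 and 6.80 RPM in wild-type and 10.9, 1.01 and 3.06 RPM in Rnaset2-/- libraries, and it was called lower (-1.84, adjusted p = 0.0042) only without Rnaset2-/- replicate 1.

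**Figure D2:**
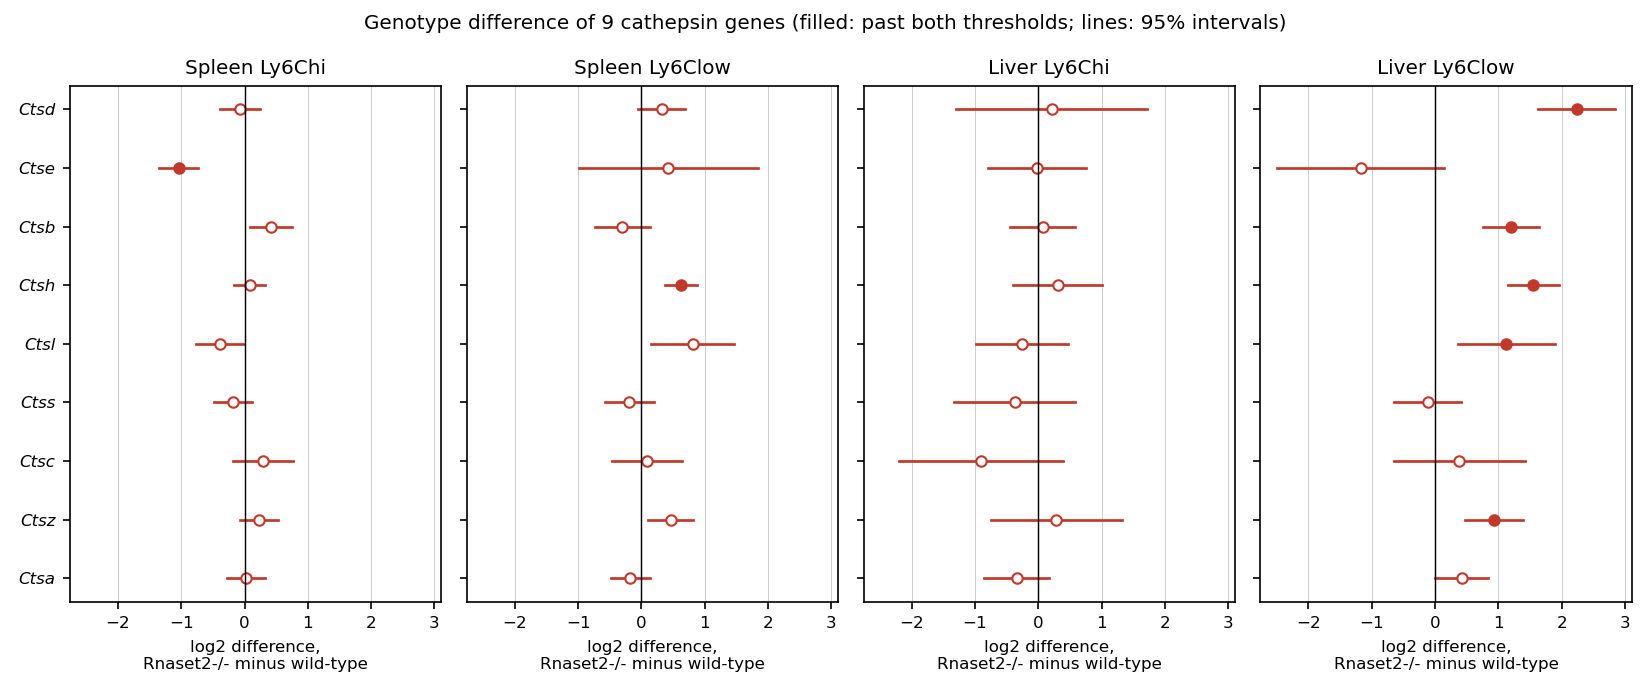
Genotype difference (log2, Rnaset2-/- minus wild-type) of 9 cathepsin genes in the 4 subsets of spleen and liver. Dots are fitted differences, lines are 95% intervals, and filled dots passed both thresholds, which was the case for 5 genes in hepatic Ly6Clow macrophages, 1 gene each in the splenic subsets and none in hepatic Ly6Chi macrophages.

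Markers of other cells moved with genotype in the same libraries. The 5 KC markers (Clec4f, Timd4, Vsig4, Cd5l and Marco) summed to 75.1 to 108 RPM in wild-type and 5663 to 10752 RPM in Rnaset2-/- hepatic Ly6Clow macrophages, with 4 of 5 called higher and none at 0 in either group mean. In the Rnaset2-/- libraries Cd5l was at 7290 RPM ± 2132, against 6345 RPM ± 2853 in KCs. Clec4f was at 44.7 RPM ± 23.9, against 4197 RPM ± 1709 in KCs. The sinusoidal endothelial markers summed to 196 to 237 RPM in wild-type and 1048 to 3354 RPM in Rnaset2-/- libraries, with 2 of 4 called higher. Erythroid markers (4 of 4), B cell markers (3 of 3) and NK and T cell markers (4 of 6 tested) were also called higher, at sums of 345 RPM or less. Immediate early genes were lower in 8 of 8, at 752 to 885 RPM against 15892 to 22021 RPM in wild-type. The part of these, and of the sex difference, in the cathepsin differences was not tested.

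In the spleen each subset had a single called cathepsin. In Ly6Chi macrophages Ctse, an endosomal aspartic protease of immune cells, was lower in Rnaset2-/- mice, and in Ly6Clow macrophages Ctsh was higher. In Ly6Chi macrophages 12.5% of all tested genes were called lower and 9.77% higher, and in Ly6Clow macrophages 4.30% lower and 4.05% higher.

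Ctse had 22.3, 19.8 and 19.8 RPM in the wild-type and 8.13, 9.36 and 8.83 RPM in the Rnaset2-/- splenic Ly6Chi libraries. The genotypes did not overlap, as for 2 of 9 cathepsins in this direction (Ctse and Ctsl) and 32.4% of all tested genes, with 0 of 9 and 18.7% in the other direction. The difference was -1.04 ± 0.14 (adjusted p = 0.00032). It was called in all 6 fits that left out a library, and not in the fit of all 29 libraries (-1.03, adjusted p = 0.36). In the same subset Ctsb differed by 0.42 ± 0.15 (adjusted p = 0.051) and was called only without Rnaset2-/- replicate 3, where the difference was 0.60 (adjusted p = 0.0019). The other 7 genes had differences from -0.38 to 0.29 and none was called. The neutrophil markers were called higher for 8 of 10. Called lower, as Ctse was, were NK and T cell markers (6 of 7), dendritic cell markers (4 of 4), erythroid markers (2 of 2 tested, at sums of 2.69 to 9.16 RPM against 103 to 107 RPM in wild-type) and immediate early genes (5 of 8). Their part in the Ctse difference was not tested.

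Ctsh had 234, 221 and 228 RPM in the wild-type and 327, 351, 362 and 359 RPM in the Rnaset2-/- splenic Ly6Clow libraries. The 4 Rnaset2-/- libraries lay above all 3 wild-type libraries, as for 3 of 9 cathepsins (Ctsh, Ctsl and Ctsz) and 14.3% of all tested genes. Ctsb alone lay below without overlap, beside 16.3%. The difference of Ctsh was 0.62 ± 0.11 (adjusted p = 0.015). This call was fragile, with adjusted p = 0.055, 0.070 and 0.083 when wild-type replicate 1, 2 or 3 was left out. Ctsl differed by 0.81 ± 0.29 (adjusted p = 0.11), and its highest value, 199 RPM, was that of Rnaset2-/- replicate 1, with 72.2 to 91.1 RPM in the other 3. Ctse was uneven in the Rnaset2-/- libraries, at 97.1, 40.7, 10.9 and 13.1 RPM, around the 18.5 to 22.5 RPM of wild-type. The neutrophil markers, of which 1 of 10 was called higher, summed to 37766, 21529, 4102 and 3171 RPM in these same 4 libraries and to 996 to 2302 RPM in wild-type. The erythroid markers, of which 3 of 4 were called higher, summed to 943, 221, 53.8 and 67.8 RPM in them and to 37.8 to 97.0 RPM in wild-type. Replicates 1 and 2 were therefore high for Ctse and for both lists, and replicate 2 was the only splenic library with Y-linked transcripts above 1 RPM, at 301 RPM. NK and T cell markers were called lower for 4 of 7. The sinusoidal endothelial markers, 1 of 3 tested called higher, summed to 1461 to 2202 RPM in Rnaset2-/- and 271 to 325 RPM in wild-type libraries. The part of all these markers in the cathepsin differences was not tested.

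In hepatic Ly6Chi macrophages no cathepsin was called by limma at these thresholds, DESeq2 and edgeR called none either, and 0 of the 9 had an unadjusted p below 0.05. Of all tested genes, 15.7% were called higher and 14.9% lower. Replicate 1 of the Rnaset2-/- libraries set the spread, with Ctsd at 6314 RPM against 1148 and 1437, Ctsz at 980 RPM against 337 and 345, and Ctsc at 1406 RPM against 321 and 399. The other 2 Rnaset2-/- libraries lay within the wild-type range for Ctsd and Ctsz and below it for Ctsc. In RPM as deposited, Ctsb and Ctsh were higher in all 3 Rnaset2-/- libraries than in any wild-type library, beside 36.4% of all tested genes. No cathepsin was lower in all 3, beside 14.2%. The median of all tested genes was itself 0.31 higher in the Rnaset2-/- libraries before scaling. After scaling, limma gave 0.07 ± 0.22 for Ctsb (adjusted p = 0.84) and 0.30 ± 0.30 for Ctsh (adjusted p = 0.47). Without scaling, Ctse and Ctsl changed sign. Without replicate 1, Ctsc was called lower (-1.62, adjusted p = 0.00011) and so was Ctss (-0.84, adjusted p = 0.0085). That replicate also had a KC marker sum of 412 RPM, against 167 and 172 RPM, and a sinusoidal endothelial sum of 242 RPM, against 1275 and 1377 RPM.

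Whether the genotype difference itself differed between organs was tested as an interaction. In Ly6Clow macrophages the difference, tested with limma, was larger in liver than in spleen for Ctsd (1.92 ± 0.31, adjusted p = 0.00064), Ctsb (1.52 ± 0.26, adjusted p = 0.00094), Ctsh (0.94 ± 0.19, adjusted p = 0.0028) and Ctsa (0.60 ± 0.21, adjusted p = 0.047). Of all tested genes, 12.1% were called in this direction and 14.7% in the other. The calls of Ctsd, Ctsb and Ctsh held in all 13 fits that left out a library, whereas that of Ctsa was lost in 10 of 13. For Ctsb the genotype difference was negative in spleen, at -0.31 ± 0.19, and positive in liver. For Ctsl the interaction was 0.33 ± 0.49, with a 95% interval from -0.73 to 1.38. In the liver genotype went with sex, whereas in the spleen Rnaset2-/- Ly6Clow replicate 2 alone had Y-linked transcripts above 1 RPM (301 RPM). The interactions of organ and genotype, in both subsets, therefore cannot be told apart from sex. In that of Ly6Clow macrophages, immediate early genes were called lower for 8 of 8. NK and T cell markers (7 of 7) and KC markers (4 of 5) were called higher, and their part was not tested.

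In Ly6Chi macrophages the interaction was called for Ctse alone (1.05 ± 0.37, adjusted p = 0.043, with 17.6% of all tested genes called in this direction and 16.0% in the other). It was lost in 8 of 12 fits that left out a library. Without Rnaset2-/- hepatic Ly6Chi replicate 1, Ctsc (-1.89, adjusted p = 0.00035) and Ctss (-0.63, adjusted p = 0.037) were called as well, in the other direction. Immediate early genes were called lower for 8 of 8 in this interaction too. NK and T cell markers (7 of 7) and KC markers (4 of 5) were called higher, and their part was not tested. In the liver the genotype difference was larger in Ly6Clow than in Ly6Chi macrophages for Ctsb (1.15 ± 0.25, adjusted p = 0.014) and Ctsh (1.27 ± 0.36, adjusted p = 0.045), beside 5.08% of all tested genes, and 5.25% in the other direction. The call of Ctsh was lost without any 1 library other than Rnaset2-/- Ly6Chi replicate 1, and in RPM as deposited (0.97, adjusted p = 0.090). Without that replicate 6 genes were called, with Ctsd at 2.89 (adjusted p = 0.00037). Without Rnaset2-/- Ly6Clow replicate 1, Ctse was called in the other direction (-1.82, adjusted p = 0.048). In the spleen no interaction of subset and genotype was called, where 8.35% of all tested genes were called in the positive and 6.38% in the negative direction. The unadjusted p was below 0.05 for 3 genes, Ctsb (-0.75 ± 0.25), Ctsh (0.52 ± 0.15) and Ctsl (1.17 ± 0.38), while edgeR called 0. DESeq2 called Ctsb, Ctsl and Ctse (2.03, adjusted p = 0.034) and did not call Ctsh.

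The subsets were then compared within each genotype. In wild-type spleen, Ctsb and Ctss were higher and Ctsh was lower in Ly6Clow than in Ly6Chi macrophages, where 13.8% of all tested genes were called higher and 19.8% lower. Ctsb had 5123, 4848 and 4729 RPM in Ly6Clow and 1682, 1750 and 1852 RPM in Ly6Chi libraries, a difference of 1.62 ± 0.08 (adjusted p = 1.2e-07). Ctss had 1934 to 2104 RPM against 1314 to 1538 RPM (0.63 ± 0.08, adjusted p = 0.00014). Ctsh had 228 RPM ± 6.49 against 382 RPM ± 10.3 (-0.60 ± 0.07, adjusted p = 6.7e-05). None of these 3 genes overlapped between subsets. In all, 3 of 9 cathepsins were higher (21.6% of all tested genes) and 4 of 9 lower (38.9%) in Ly6Clow macrophages without overlap. Ctss and Ctsh were close to the threshold of 1.5-fold and each fell below it without 1 library, Ctss without Ly6Chi replicate 2 and Ctsh without Ly6Clow replicate 2. Ctss also fell below it in RPM as deposited (0.48). Markers of other cells differed between these subsets too. The neutrophil markers were lower in Ly6Clow macrophages for 10 of 10 (996 to 2302 RPM against 30274 to 32495 RPM), as were NK and T cell markers for 7 of 7 and dendritic cell markers for 3 of 4. Their part in the cathepsin differences was not tested, here or in the subset comparisons that follow.

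In Rnaset2-/- spleen, Ctsb (0.87 ± 0.22, adjusted p = 0.017), Ctss (0.60 ± 0.19, adjusted p = 0.038) and Ctsd (0.59 ± 0.18, adjusted p = 0.036) were called higher in Ly6Clow macrophages, beside 13% of all tested genes, and none was called lower, beside 15.1%. With Ctse, 4 of 9 were higher without overlap (20.7% of all tested genes) and 0 of 9 lower (21.7%). Between 0 and 3 cathepsins were called when 1 library was left out, and 0 without Rnaset2-/- Ly6Chi replicate 3. Ctsd, close to the threshold of 1.5-fold, kept its call in 1 of 7 such fits and under 3 of 8 alternatives. Ctss lost its call without any 1 of the Ly6Chi libraries, and without Ly6Clow replicate 3 or 4. Ctsh, at 327 to 362 RPM in Ly6Clow and 334 to 440 RPM in Ly6Chi libraries, overlapped between the subsets there (-0.08 ± 0.13). In this comparison erythroid markers were called higher for 4 of 4 and neutrophil markers lower for 6 of 10.

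In wild-type liver, the cathepsins were called in the other direction. Ctsc (-0.89 ± 0.19, adjusted p = 0.018) and Ctsz (-0.64 ± 0.14, adjusted p = 0.019) were lower in Ly6Clow than in Ly6Chi macrophages, beside 4.84% of all tested genes, and none was called higher, beside 5.24%. All 9 genes had differences below 0, with a median of -0.33 beside 0.02 over all tested genes. Of these, 7 were not called, and all share the same libraries and scaling, so that the signs are not independent. Ctsc had 393, 585 and 522 RPM in Ly6Clow and 753, 796 and 1023 RPM in Ly6Chi libraries, without overlap. The same held for Ctsz and Ctsa, so that 3 of 9 were lower without overlap (10.7% of all tested genes) and 0 of 9 higher (19.2%). Both calls were lost without Ly6Chi replicate 3 or Ly6Clow replicate 3, and that of Ctsz also without Ly6Clow replicate 1 and in RPM as deposited (-0.53). The KC markers were called higher for 4 of 4 tested and neutrophil markers lower for 7 of 8 tested in Ly6Clow macrophages. Ctsb, which differed most in spleen, had 2097 to 2175 RPM in Ly6Clow and 2155 to 2300 RPM in Ly6Chi libraries here (-0.16 ± 0.14).

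In Rnaset2-/- liver with all 6 libraries, Ctsb alone was called, higher in Ly6Clow macrophages (0.97 ± 0.26, adjusted p = 0.045), beside 8.75% of all tested genes, with 8.26% called lower. It had 4964 to 5135 RPM in Ly6Clow and 2840 to 2969 RPM in Ly6Chi libraries, without overlap, and the call was lost without each of the other 5 libraries, though not without Ly6Chi replicate 1. Without that replicate, Ctsd (2.56, adjusted p = 0.0039) and Ctsh (1.28, adjusted p = 0.0063) were called higher as well. Without Ly6Clow replicate 1, Ctse was called lower (-2.25, adjusted p = 0.034). In RPM as deposited the call of Ctsb was lost (0.81, adjusted p = 0.051). The KC markers were called higher for 3 of 5 and neutrophil markers lower for 6 of 6 tested. Ctsb and Ctsh were the 2 of 9 that were higher without overlap (15.7% of all tested genes), with 0 of 9 lower (22.8%). Same-numbered libraries deviated together in this comparison, though the labels state no pairing. With the replicate number as a block, chosen from these data, 5 cathepsins were called, without a share of all tested genes to set beside them. These were Ctsb, Ctsd (1.71, adjusted p = 0.026), Ctsh (0.93, adjusted p = 0.048), Ctsl (0.74, adjusted p = 0.025) and, lower, Ctse (-1.56, adjusted p = 0.018).

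**Figure D3:**
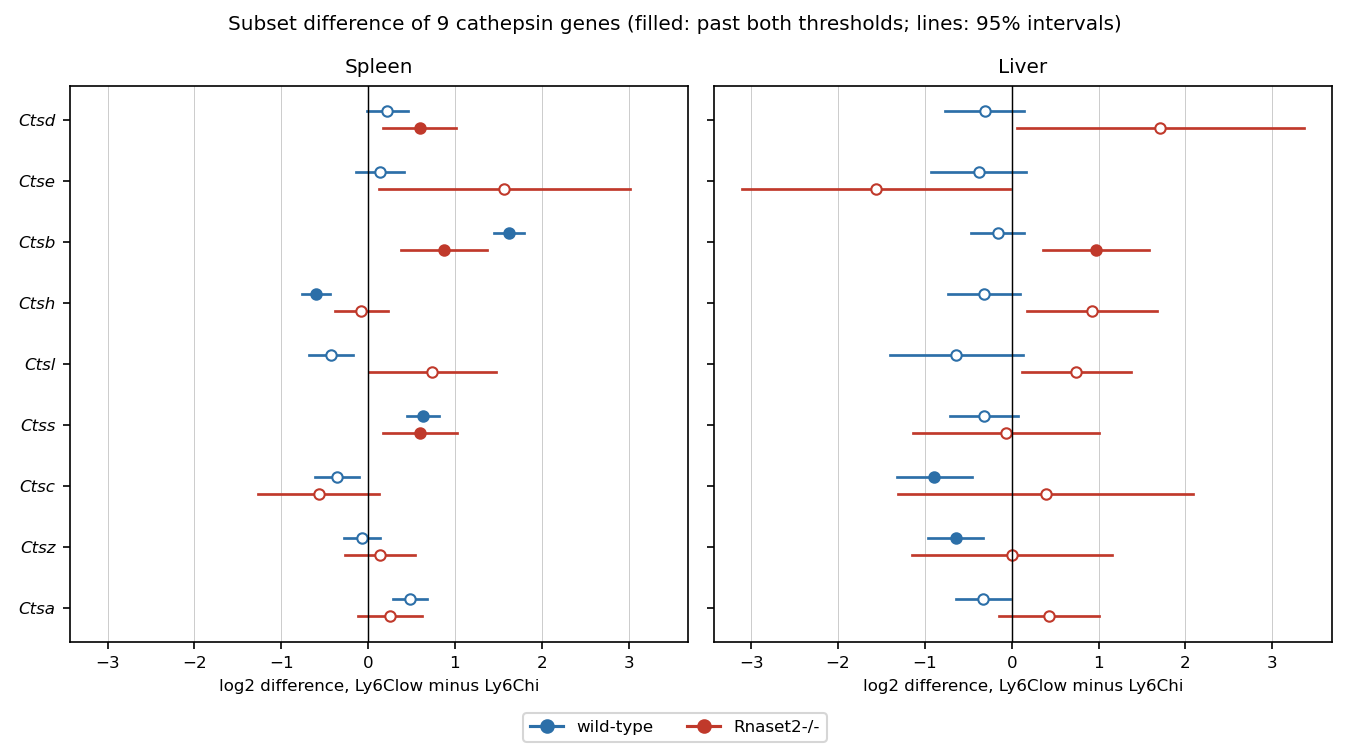
Subset difference (log2, Ly6Clow minus Ly6Chi) of 9 cathepsin genes in spleen and liver. Blue is wild-type, red is Rnaset2-/-, lines are 95% intervals and filled dots passed both thresholds. Ctsb was called in wild-type spleen (1.62), Rnaset2-/- spleen (0.87) and Rnaset2-/- liver (0.97), and in wild-type liver it was at -0.16.

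KCs were compared with the hepatic Ly6Clow macrophages of each genotype. Both comparisons share the 4 KC libraries. The scaling mattered here, since the median of all tested genes was 0.55 higher in KCs than in wild-type Ly6Clow macrophages in RPM as deposited, and 0.56 lower in Rnaset2-/- Ly6Clow macrophages than in KCs. The differences below are relative to these shifts. Without scaling, Ctsa, Ctsh and Ctsz changed sign in the first comparison and Ctse in the second, and none of these 4 genes was called in its comparison. Some calls changed as well and are given below.

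Against wild-type Ly6Clow macrophages, Ctsl and Ctsc were higher in KCs, beside 26.0% of all tested genes, and Ctss and Ctse were lower, beside 24.0%. Ctsl had 638, 691, 771 and 696 RPM in KCs and at most 216 RPM in the wild-type Ly6Clow libraries, a difference of 1.53 ± 0.26 (adjusted p = 0.00056). Ctsc had 2931, 2787, 940 and 2699 RPM in KCs and at most 585 RPM in the wild-type Ly6Clow libraries, a difference of 1.52 ± 0.38 (adjusted p = 0.0061). Both genes were without overlap, replicate 3 of the KCs included, as were Ctsb and Ctsd, which makes 4 of 9 higher beside 47.1% of all tested genes. Ctss was the 1 of 9 that was lower without overlap, beside 12.2%. The difference of Ctss was -1.01 ± 0.28 (adjusted p = 0.010), and in RPM as deposited it was -0.42 (adjusted p = 0.19) and no longer called. Ctse, at 0.915 to 9.73 RPM in KCs and 6.80 to 10.8 RPM in wild-type Ly6Clow libraries, overlapped and lost its call in 4 of 7 fits that left out a library. Without KC replicate 3, 6 genes were called, with Ctsd (1.13, adjusted p = 0.0012) and Ctsb (0.66, adjusted p = 0.0083) added. In RPM as deposited, Ctsd (1.38, adjusted p = 0.0046) and Ctsb (0.98, adjusted p = 0.010) were also called and Ctse was not (-1.05, adjusted p = 0.12). Markers of hepatocytes (3 of 3), NK and T cells (7 of 7), B cells (3 of 3) and sinusoidal endothelium (4 of 4) were called higher in KCs, and immediate early genes lower for 8 of 8. Their part in these differences was not tested.

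Rnaset2-/- hepatic Ly6Clow macrophages were above KCs for Ctsh (1.61 ± 0.27, adjusted p = 0.0013), Ctsd (1.43 ± 0.43, adjusted p = 0.022) and Ctsz (1.21 ± 0.29, adjusted p = 0.0073), beside 19.4% of all tested genes, and with all libraries and scaling no cathepsin was called lower, beside 26.3%. For Ctsh, the 3 Rnaset2-/- libraries (773 to 928 RPM) lay above all 4 KC libraries (241 to 513 RPM). Ctsz was also without overlap, which makes 2 of 9 higher beside 9.60% of all tested genes. For Ctsd they did not, since KC replicate 1 had 5303 RPM and Rnaset2-/- replicate 2 had 5185 RPM, and its call was lost without KC replicate 2. In RPM as deposited, the calls of Ctsd (0.90, adjusted p = 0.085) and Ctsz (0.68, adjusted p = 0.062) were lost, and Ctsl (-0.95, adjusted p = 0.0037) and Ctsc (-1.69, adjusted p = 0.020) were called lower than in KCs. Ctsc was also called lower without KC replicate 3 (-1.57, adjusted p = 0.019) and without Rnaset2-/- replicate 1 (-1.68, adjusted p = 0.016). Ctsl was at 272 to 443 RPM in Rnaset2-/- Ly6Clow macrophages, between the wild-type Ly6Clow libraries and the KCs without overlapping either (1 of 9 lower than KCs without overlap, beside 45.3%), with a fitted difference from KCs of -0.42 ± 0.23 (adjusted p = 0.15). The KC marker sum was 5663 to 10752 RPM in the Rnaset2-/- libraries and 5302 to 17136 RPM in the KCs. By gene, 3 of the 5 KC markers were called lower than in KCs and 0 higher, with a list median of -3.42. Hepatocyte markers were called lower for 3 of 3 and NK and T cell markers for 4 of 7 in the Rnaset2-/- libraries, and the part of either was not tested. The KC libraries had Xist at 647 to 949 RPM and Y-linked transcripts at 0 RPM. The Rnaset2-/- libraries had Xist at 0 RPM and Y-linked transcripts at 199 to 291 RPM. Cell type, genotype and sex therefore cannot be told apart in this comparison.

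In this comparison too, same-numbered libraries deviated together, with correlations of 0.102 to 0.327. The groups differ in genotype, so same-numbered libraries came from different mice, and the block was chosen from these data. With the replicate number as a block, where KC replicate 4 has no partner and carried no weight, 6 cathepsins were called. No share of all tested genes under this block is given to set beside them. Ctsa (0.83, adjusted p = 0.034) and Ctss (1.00, adjusted p = 0.022) were added as higher and Ctsc (-1.03, adjusted p = 0.039) as lower in Rnaset2-/- Ly6Clow macrophages.

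**Figure D4:**
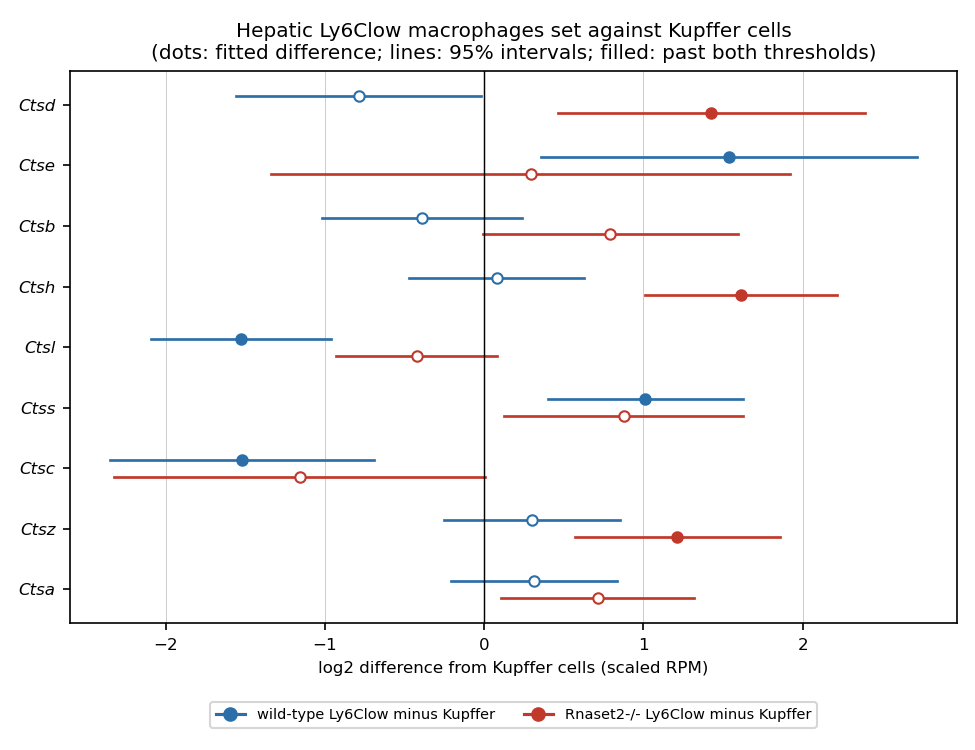
Difference of 9 cathepsin genes from KCs (log2, scaled) in wild-type (blue) and Rnaset2-/- (red) hepatic Ly6Clow macrophages. Lines are 95% intervals and filled dots passed both thresholds. The red dots of Ctsh, Ctsd and Ctsz lie above KCs by 1.61, 1.43 and 1.21, and the blue dots of Ctsl and Ctsc lie below KCs by 1.53 and 1.52, the same comparisons as in the text with the sign of the first turned.

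Genes that act with cathepsins were taken from 4 lists. The first held 11 genes of sorting, activation and partner proteins, all of them tested. In hepatic Ly6Clow macrophages 7 of the 11 were called higher in Rnaset2-/- mice and none lower, with a list median of 1.17, beside 20.2% of all tested genes called higher and 22.5% lower. Progranulin (Grn), a lysosomal protein that cathepsins process, had 607 RPM ± 28.9 in wild-type and 3139 RPM ± 535 in Rnaset2-/- macrophages (n = 3 each), a difference of 2.32 ± 0.20 (adjusted p = 8.2e-05). The others were the cation-dependent mannose 6-phosphate receptor M6pr (1.77), legumain (Lgmn, 1.55), which matures several cathepsins, sortilin (Sort1, 1.44), the phosphotransferase subunits Gnptab (1.31), the uncovering enzyme Nagpa (1.17) and β-galactosidase (Glb1, 0.85). In the other subsets 0 of 11 (splenic Ly6Chi), 1 lower of 11 (splenic Ly6Clow, Gnptg at -0.72) and 1 higher of 11 (hepatic Ly6Chi, Igf2r at 1.48) were called. The shares of all tested genes called higher and lower were 9.77% and 12.5% in splenic Ly6Chi, 4.05% and 4.30% in splenic Ly6Clow, and 15.7% and 14.9% in hepatic Ly6Chi macrophages, and they stand beside the counts of the lists that follow too.

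Of 17 listed inhibitors, 12 symbols were matched and 8 were tested in hepatic Ly6Clow macrophages. Ctla2b (4.57), Serpina3g (3.57), Serpinb6a (2.58) and Ctla2a (1.54) were called higher in Rnaset2-/- mice, and cystatin C (Cst3), a secreted cystatin, was lower (-0.81 ± 0.26, adjusted p = 0.034). Cst3 had 8192 to 9222 RPM in wild-type and 3990 to 6003 RPM in Rnaset2-/- libraries, without overlap. In hepatic Ly6Chi macrophages Ctla2b (3.51), Serpinb6a (3.32) and Ctla2a (2.55) were called higher, as 3 of 8 tested. In splenic Ly6Clow macrophages Serpina3g (1.88) and Serpinb6a (1.74) were called higher, as 2 of 8. Of 9 tested in splenic Ly6Chi macrophages, Serpinb1a (1.53) and Stfa1 (1.12) were higher, while Ctla2a (-2.04) and Ctla2b (-0.996) were lower.

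Among 13 other cathepsin genes, 8 were under 1 RPM in every library. Ctsf (2.27) and Ctsw (1.34), a cathepsin of NK and T cells, were called higher in Rnaset2-/- hepatic Ly6Clow macrophages, as 2 of 3 tested. Ctsw was higher in hepatic Ly6Chi macrophages (3.32), where NK and T cell markers were called higher for 7 of 7, and lower in splenic Ly6Chi macrophages (-3.40), where they were called lower for 6 of 7. Ctsf was also lower in splenic Ly6Chi macrophages (-1.21), and Ctsg, a neutrophil granule protease, was higher there (2.34). The transcription factors Tfeb, Tfe3, Tfec and Mitf, which switch on lysosomal genes, were all tested in each genotype comparison. None was called in the liver, Tfec was called higher in splenic Ly6Chi macrophages (0.95) and Mitf in splenic Ly6Clow macrophages (1.13).

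**Figure D5:**
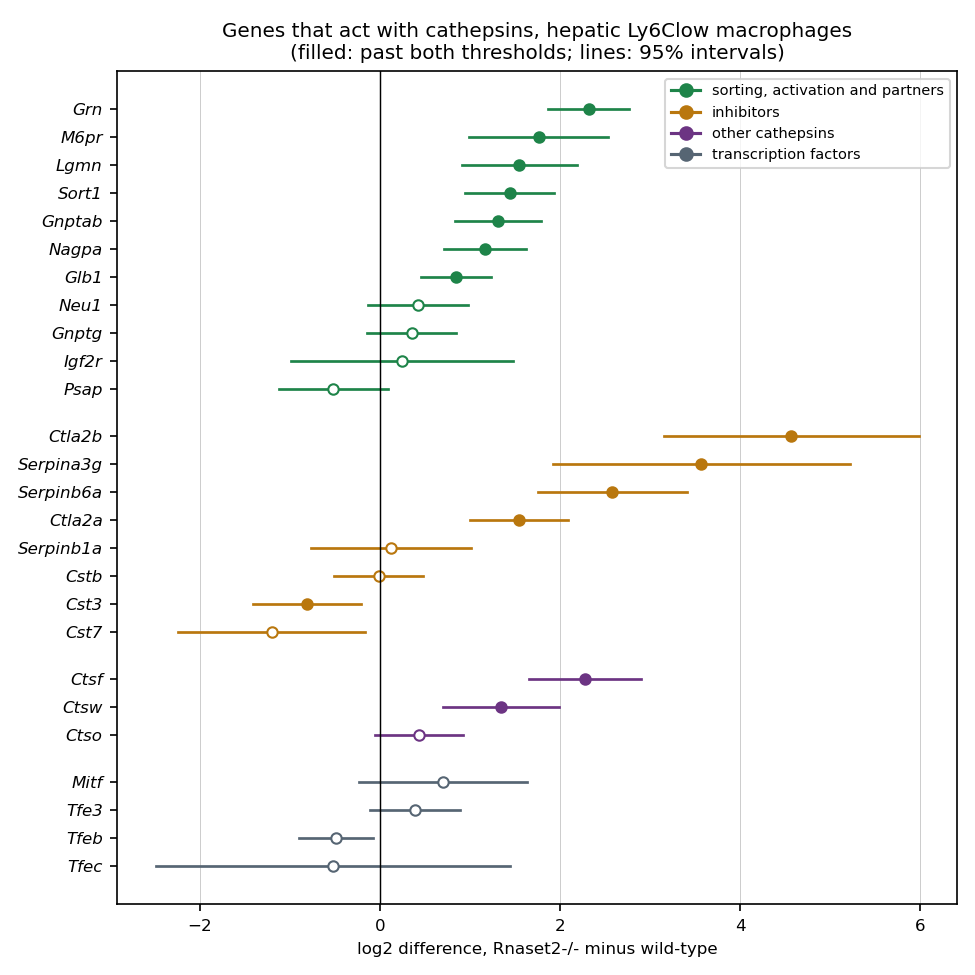
Genotype difference (log2, Rnaset2-/- minus wild-type) of genes that act with cathepsins in hepatic Ly6Clow macrophages. Colours mark the 4 lists, lines are 95% intervals and filled dots passed both thresholds, as 7 of 11 sorting and partner genes did and 0 of 4 transcription factors.

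The E-box CACGTG, the core of the element these factors bind, was looked for in the 250 bases before each start in RefSeq promoters (GRCm38.p6). It reads the same on both strands and was found in 6.02% of all 32851 promoters. Of the 10 cathepsins 7 had a promoter among these, while Ctsb, Ctse and Ctsh had none. Of the 7, 3 held the motif, namely Ctsa, Ctsd and Ctsl. Ctsd held it 2 times, and 0.429% of all promoters held it 2 or more times. The windows are shown 5′ to 3′ on the gene's strand with the motif in capitals, at chr7:142388055-142388077 and chr7:142387908-142387937 for Ctsd (minus strand), chr13:64370739-64370768 for Ctsl (minus) and chr2:164833749-164833772 for Ctsa (plus). The first Ctsd window lies upstream of the gene, and the other 3 lie within exons annotated as untranslated region in GENCODE vM21.
Ctsd, distal: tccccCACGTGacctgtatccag
Ctsd, proximal: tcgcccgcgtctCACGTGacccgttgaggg
Ctsl: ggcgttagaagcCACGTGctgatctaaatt
Ctsa: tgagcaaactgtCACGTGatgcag
A match describes the letters only, and its part in the genotype differences was not tested. Ctsc, Ctsk, Ctss and Ctsz did not hold it in this window.

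Across the 9 group means, the cathepsins fell into different patterns. The closest pairs were Ctsc with Ctsl (r = 0.90), Ctsd with Ctsl (r = 0.87), Ctsa with Ctsb (r = 0.83) and Ctsh with Ctsz (r = 0.80), by Pearson's r of log2(RPM + 1) over 9 groups. Ctse ran opposite to Ctsc (r = -0.77), Ctsd (r = -0.75) and Ctsl (r = -0.73). The groups share libraries, depth and scaling, so that these values only describe the 9 means. Among 7910 genes with a mean of at least 10 RPM, those most like Ctsd were Clasp2 (r = 0.97), Lap3 and Sdc3 (r = 0.96 each), and those most like Ctsl were Atp6v1c1, Rgl1 and Maf (r = 0.97 each). Those nearest to Ctsc were Armcx3 (r = 0.97), Tceal8 and Pdcl3 (r = 0.96 each), and those nearest to Ctsh were Ndufs3 (r = 0.97), Il4ra (r = 0.96) and Eef2 (r = 0.95). Ctsb was nearest to Tomm34 (r = 0.95), Aldh18a1 (r = 0.93) and Tcf7l2 (r = 0.91), and Ctse to Fam117b (r = 0.99), Relt (r = 0.97) and Cers5 (r = 0.95). Ctsz was nearest to Gbp5 (r = 0.94), Atp6v1f and Batf2 (r = 0.92 each), while the nearest genes were less like Ctsa (Pde4dip, r = 0.86, Ptprj, r = 0.85, and Tmem68, r = 0.84) and Ctss (Ggct, r = 0.86, Gm2848 and Tapbpl, r = 0.85 each).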

How the data were processed

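RNA from sorted cells was read on an Ion Proton sequencer as an Ion AmpliSeq mouse transcriptome panel. The authors deposited RPM per gene, made with the Torrent Suite software, and mm10 is the build in the submitters' processing notes. All values (100% within 0.1 reads) were whole reads, which were recovered. In each comparison, relative log expression factors scaled the RPM, and genes reaching 1 RPM in 3 or more of the compared libraries were kept. The log2(value + 1) was fitted with limma 3.58.1 (lmFit, eBayes with a trend, R 4.3.3), two-sided, with Benjamini-Hochberg adjustment. The study's methods name DESeq2, which with edgeR was an alternative on recovered reads (DESeq2 1.42.0, edgeR 4.0.16). Other alternatives were an added value of 0.1, no filter, no scaling, TMM factors, 1 fit of all libraries, the replicate block and leaving out each library. The scripts were tested on simulated data. Positions are from GENCODE vM21. The text names all 10 cathepsins, related genes called in a genotype comparison, and the 3 genes nearest each cathepsin. The members and lists were chosen with earlier results of these data known. Replicate numbers were taken to pair libraries where every same-numbered pair's deviations correlated above 0.1, in Rnaset2-/- liver (0.22 to 0.51) and in Rnaset2-/- Ly6Clow macrophages against KCs (0.10 to 0.33). The labels state no such pairing, so both blocks were chosen from these data, and the KCs came from other mice than the Rnaset2-/- macrophages. The targeted genes were not analysed here.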

Additional observations from a re-analysis of the deposited data

Results flagged for a closer look

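Among 18 values of a cathepsin in a group of 4 libraries, 2 had a library far from the other 3, where chance gives about 1 in 20. Ctsc was at 940 RPM in KC replicate 3, with 2699 RPM as the next value. Ctsl was at 199 RPM in Rnaset2-/- splenic Ly6Clow replicate 1, with 91.1 RPM as the next value.

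Of 36 tests of a difference between genotype effects, 7 passed both thresholds in limma. Between liver and spleen, the genotype effect in Ly6Clow macrophages differed for Ctsa (0.60), Ctsb (1.52), Ctsd (1.92) and Ctsh (0.94), and that in Ly6Chi macrophages for Ctse (1.05). These differences between organs cannot be told apart from sex. Between the hepatic subsets it differed for Ctsb (1.15) and Ctsh (1.27).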

How the results depend on the processing

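Of 1008 values of a cathepsin under the 8 alternatives, 928 kept their side of the thresholds, 42 lost and 38 gained a call, and 0 changed direction while called. With 1 library left out, 934 kept their side, 63 lost and 29 gained a call. Values called in neither fit were counted as kept even where their sign changed. The cause of a change was not tested. In hepatic Ly6Clow macrophages 5 cathepsins were called by genotype, and 3 without a filter on low values (Ctsb, adjusted p = 0.052, and Ctsl, adjusted p = 0.051, were lost), with 4 to 6 when 1 library was left out. In splenic Ly6Chi macrophages 1 was called by genotype, and 0 in the fit of all 29 libraries, with 1 to 2 when 1 library was left out. In splenic Ly6Clow macrophages 1 was called, and 0 in the fit of all libraries, 0 with the replicate block and 2 by DESeq2, with 0 to 1 when 1 library was left out. In hepatic Ly6Chi macrophages 0 were called, and 0 to 2 when 1 library was left out. Between subsets, wild-type spleen gave 3 calls, 1 in the fit of all libraries and 2 to 3 with a library left out. Rnaset2-/- spleen gave 3, 0 without a filter, 0 with the replicate block, 5 by DESeq2 and 0 to 3 with a library left out. Wild-type liver gave 2, 1 without a filter, 1 without scaling, 0 in the fit of all libraries and 0 to 2 with a library left out. Rnaset2-/- liver gave 1, 0 without a filter, 0 without scaling, 3 in the fit of all libraries, 5 with the block and 0 to 3 with a library left out. Against KCs, wild-type Ly6Clow macrophages gave 4 calls, and 3 to 6 with a library left out. Rnaset2-/- Ly6Clow macrophages gave 3, 7 in the fit of all libraries, 6 with the block, 6 by DESeq2 and 2 to 4 with a library left out. The organ-by-genotype interaction gave 4 in Ly6Clow macrophages (3 to 4 with a library left out). It gave 1 in Ly6Chi macrophages, 0 without a filter, 0 in the fit of all libraries and 0 to 3 with a library left out. The subset-by-genotype interaction gave 0 in spleen, 2 without scaling, 1 with the block, 3 by DESeq2 and 0 to 2 with a library left out. In liver it gave 2, 0 without a filter, 1 without scaling, 4 in the fit of all libraries, 4 by DESeq2, 1 by edgeR and 1 to 6 with a library left out. Outside Rnaset2-/- liver and the Rnaset2-/- comparison with KCs, same-numbered pairs correlated from -0.217 to 0.553, and the labels state no pairing. The highest value was that of replicate 1 in wild-type liver, with -0.12 and -0.137 for replicates 2 and 3. Y-linked transcripts were at 0 RPM in replicate 1 of both wild-type hepatic subsets and above 0 RPM in replicates 2 and 3. Whether these libraries shared mice was not tested. With the replicate block, Ctsl was also called lower in Ly6Clow macrophages of wild-type liver (-0.64, adjusted p = 0.041). Where leaving out a library left 1 arm with 2 libraries, the spread was still estimated from all libraries in the fit. The depth limits Ctsk, which was at or near the floor of 3 reads.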
